A study of Mus musculus with 6 samples.

Results

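The immunoproteasome and peptide loading genes are described here as 10 genes taken by their symbol from a table of read counts per gene: Psmb8, Psmb9, Psmb10, Psme1, Psme2, Tap1, Tap2, Tapbp, Tapbpl and Erap1. All 10 were found, each in a single row, among 53153 gene symbols, and all 10 passed the filter on low counts that left 16621 genes for testing. The libraries are bulk RNA-seq of tumor γδ T cells from KitV558del/+ mice (strain C57BL/6J in the labels) aged 8 to 10 weeks, 3 libraries on vehicle and 3 after 1 week of imatinib at 600 mg/L in the drinking water. KitV558del keeps the receptor kinase KIT active and gives the mice a gastrointestinal stromal tumor (GIST) of the intestine, and imatinib inhibits KIT. Both groups carry the mutation, so no library comes from a mouse without it. The labels put all 6 libraries in the same batch and do not say whether a library is 1 mouse or a pool, so the p-values measure the spread between libraries, which may be technical in part.

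The study's methods describe cells sorted as CD45+, CD3+, NK1.1- and TCRγδ+, whereas the series text names regulatory T cells. Trdc, the δ chain constant segment of the T cell receptor, was at 389 to 1283 CPM (counts scaled to a common total of named genes) and Foxp3, which defines regulatory T cells, at 0 to 0.807 CPM. The libraries also held RNA of other cells. Summed over 7 macrophage markers (C1qa, C1qb, C1qc, Csf1r, Adgre1, Cd68 and Mrc1) the level in replicates 1, 2 and 3 was 10980, 9149 and 12220 CPM on vehicle and 4970, 8816 and 7803 CPM on imatinib, and no marker of this list was at 0 in all libraries. The 6 B and plasma cell markers summed to 3438 to 26040 CPM on vehicle and 18950 to 25990 CPM on imatinib. Macrophages and B cells make the 10 genes too, and in bulk RNA fewer cells of a type and less RNA per cell cannot be told apart. Library totals ran from 21333897 to 25214210 counts, and the 10 genes had 1115 to 10754 counts in any library.

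Peptides shown to CD8 T cells on MHC class I are cut mostly by the proteasome, a barrel whose inner rings carry the catalytic subunits. Under interferon the standard catalytic subunits are replaced in newly built barrels by Psmb8, Psmb9 and Psmb10, which makes the immunoproteasome, and the Psme1 and Psme2 proteins form the PA28 cap that opens the barrel. The peptides are pumped into the endoplasmic reticulum by the transporter made of Tap1 and Tap2, trimmed there by Erap1, and loaded onto class I molecules with the help of tapasin (Tapbp) and its relative TAPBPR (Tapbpl). Lymphocytes and macrophages make this machinery without added interferon, and interferon γ raises it in most cells.

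All 10 genes were well expressed in every library. Per kilobase of exon, the level on vehicle was highest for Psme1 (3290 ± 219 TMM-scaled counts per kilobase, SD, n = 3), followed by Tapbp (2475 ± 240), Psme2 (2030 ± 199), Psmb10 (1467 ± 169), Psmb8 (1408 ± 127) and Tap1 (1397 ± 31.4). Tap2 (758 ± 82.5), Psmb9 (671 ± 18.2), Tapbpl (620 ± 96.9) and Erap1 (358 ± 33.5) were lower. TMM scaling sets the libraries to a common scale by the bulk of genes, and lengths are all exonic bases of a gene, so a gene with a long rare exon comes out low. Psme1 ranked 1 and Erap1 ranked 10 in all 6 libraries, and Tap2 ranked 7 in all 6. Psmb10, Psmb8 and Tap1 differed by less than their spread on vehicle and changed places between libraries, and so did Psmb9 and Tapbpl. On imatinib Tap1 ranked 6 in each library.

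**Figure D1:**
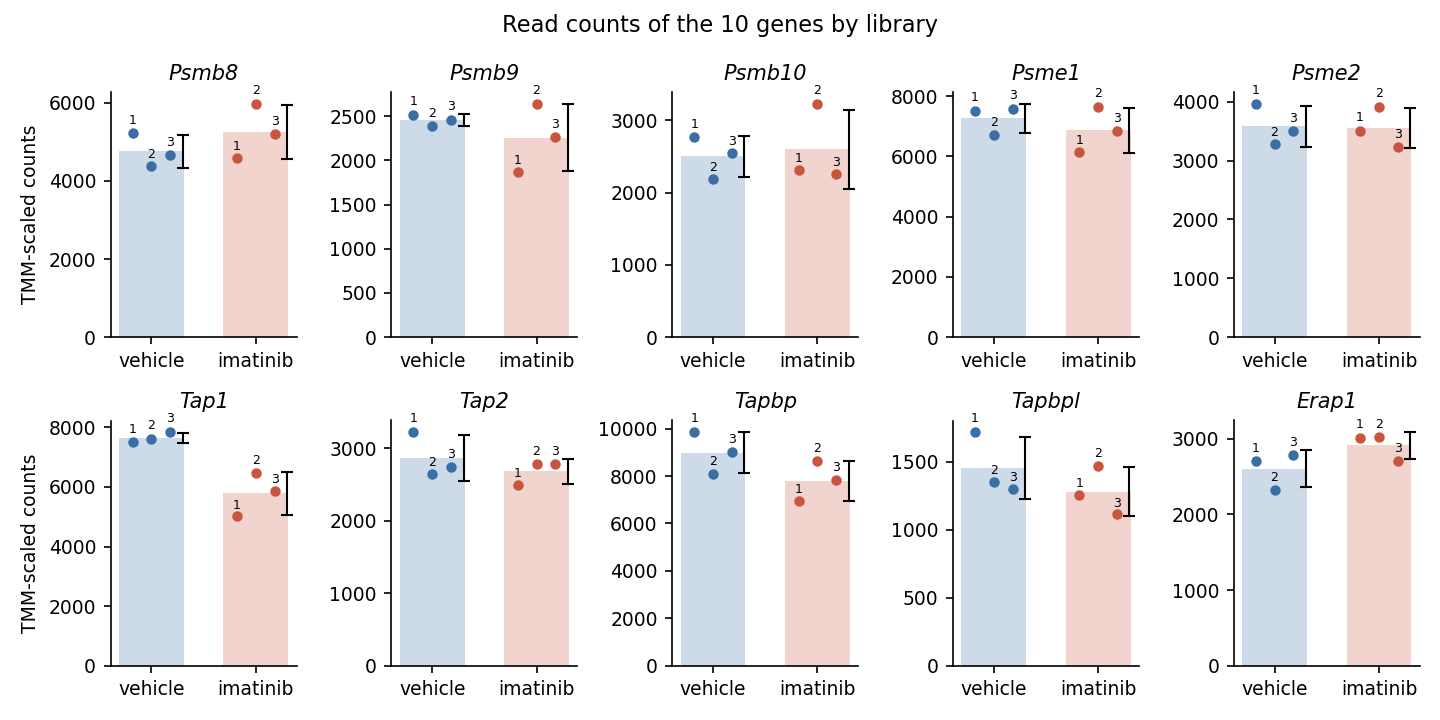
TMM-scaled counts of the 10 genes by library, each panel from 0. Points are the libraries with their replicate number, bars the group mean and whiskers the SD (n = 3). Tap1 is the panel in which every imatinib library, at 5019 to 6474, lies below every vehicle library, at 7502 to 7840.

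After imatinib, the transporter gene Tap1 fell, and the other 9 genes, among them all of the immunoproteasome and PA28 genes, did not pass the test. With edgeR's quasi-likelihood test over all 16621 genes and Benjamini-Hochberg adjustment, a gene is said to have fallen or risen at an adjusted p under 0.05. Of the 10 genes 1 fell, against 8.42% of all genes tested, and 0 rose, against 6.15%. DESeq2 and limma voom also called 1 lower and 0 higher. Over all genes, DESeq2 called 1966 lower and 1438 higher of 27847 genes with a count, and voom 1661 lower and 1281 higher of 16621. DESeq2's own filter can leave genes of low count without an adjusted p, so the 27847 is not its number of genes tested. How many it left out was not counted. At an unadjusted p under 0.05 in edgeR the count was 1 of 10, against 31.1% of all genes in either direction. The groups did not overlap, with imatinib lower, for 1 of the 10, against 20.2% of all genes, and with imatinib higher for 0 of the 10, against 17.5%. The share that fell is near that of all genes and is no result about the 10 as a set. Their log2 fold changes of imatinib against vehicle (log2FC) were small. The median size without sign was 0.13, against 0.35 over all genes and 0.28 over the 3210 genes with a mean count at least that of the lowest of the 10. The signed median was -0.087, against 0.014 for all genes. For the 9 genes besides Tap1 the log2FC values lay between -0.20 and 0.16 (adjusted p = 0.291 to 0.954, edgeR), and their 95% intervals together spanned 0.695-fold to 1.35-fold with TMM scaling. The mean was lower on imatinib for 7 genes and higher for 3 (Psmb8, Psmb10 and Erap1). When libraries were scaled to their Cd3d, Cd3e and Cd3g counts instead, the median of all genes moved by -0.73, calls over all genes went from 1022 higher and 1399 lower to 135 and 4678, and all 10 were lower, 2 of them past the test (Tap1 and Tapbpl). The log2FC values of the 9 besides Tap1 then ran from -0.93 (Tapbp) to -0.57 (Psmb8), so the interval above does not carry over to that scaling. With RLE size factors in place of TMM they ran from -0.20 (Tapbp) to 0.16 (Erap1), and with library totals from -0.24 (Tapbp) to 0.12 (Erap1).

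**Figure D2:**
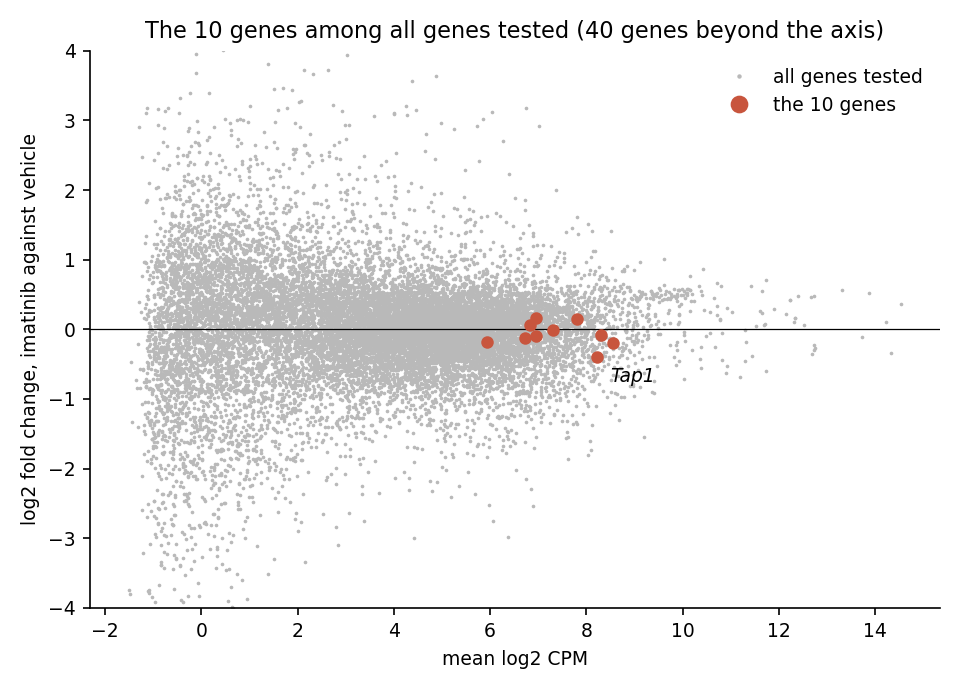
Log2FC of imatinib against vehicle (y) by mean log2 CPM (x) for the 16621 genes tested (grey) and the 10 genes (red). The 10 lie among the more highly expressed genes and between -0.40 and 0.16, close to 0, with Tap1 lowest. A further 40 genes lie beyond the y axis, which ends at 4 and -4.

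Psmb8, the immunoproteasome subunit with the chymotrypsin-like site, had 5226, 4381 and 4677 TMM-scaled counts in vehicle replicates 1, 2 and 3. In the imatinib replicates it had 4582, 5980 and 5195. The groups overlapped, with imatinib 2 the highest library and vehicle 2 the lowest. Means were 4761 ± 428 and 5252 ± 701 (log2FC 0.14, standard error 0.13, 95% interval -0.15 to 0.43, adjusted p = 0.488, edgeR). In the same order of libraries, Psmb9, which takes the place of Psmb6, had 2519, 2386 and 2457 counts on vehicle and 1874, 2641 and 2259 on imatinib. The vehicle libraries were tight and the imatinib libraries spread around them, with imatinib 2 above and the other two below. Psmb9 had a mean of 2454 ± 66.4 on vehicle and 2258 ± 383 on imatinib (log2FC -0.12, interval -0.42 to 0.18, adjusted p = 0.579, edgeR). Psmb10, which replaces Psmb7 at the trypsin-like site, had 2765, 2193 and 2544 counts on vehicle and 2308, 3230 and 2259 on imatinib. Again imatinib 2 was the highest of the 6, and the other two imatinib libraries lay within the vehicle range. The means of Psmb10 were 2501 ± 289 and 2599 ± 547 (log2FC 0.055, standard error 0.16, interval -0.31 to 0.42, adjusted p = 0.850, edgeR), and its sign turned with voom and without vehicle 2 or imatinib 2.

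Psmb5, Psmb6 and Psmb7 are the standard subunits that Psmb8, Psmb9 and Psmb10 replace, so a ratio within a library compares both forms of a site without any scaling between libraries. None of the 3 passed the test (1 at an unadjusted p under 0.05, against 31.1% of all genes, edgeR, and 0 by DESeq2 or voom). Psmb5 had 900.4, 719 and 796 counts on vehicle and 1079, 1104 and 937 on imatinib, so every imatinib library was above every vehicle library (log2FC 0.37, interval 0.079 to 0.66, adjusted p = 0.0857, edgeR). Psmb6 (log2FC 0.066, adjusted p = 0.685) and Psmb7 (0.051, adjusted p = 0.802) overlapped between groups. Per kilobase, Psmb8 over Psmb5 was 1.54, 1.62 and 1.56 on vehicle and 1.13, 1.44 and 1.47 on imatinib. All imatinib ratios were below all vehicle ratios, imatinib 1 farthest (log2 difference -0.23, standard error 0.13). The difference had p = 0.1 by an exact permutation test (two-sided), the lowest value open to 3 libraries against 3, and an adjusted p = 0.233 over the 7 ratios compared. With TMM scaling Psmb8 itself was not lower on imatinib, and the lower ratio came with the higher Psmb5. With libraries scaled to CD3 counts both genes were lower, Psmb8 (log2FC -0.57) more than Psmb5 (-0.36), and neither passed the test. Which of the 2 genes moved thus depends on the scaling. Psmb9 over Psmb6 was 0.744, 0.769 and 0.754 on vehicle and 0.577, 0.775 and 0.636 on imatinib (exact permutation p = 0.4, adjusted p = 0.7). Psmb10 over Psmb7 was 7.51, 6.49 and 7.35 on vehicle and 5.80, 9.48 and 6.42 on imatinib (exact permutation p = 0.9, adjusted p = 0.9). Both overlapped because of imatinib 2, which had the highest ratio of the 6 in each. The size of these ratios rests on lengths of all exonic bases (3660 for Psmb9, 1872 for Psmb6, 1705 for Psmb10 and 3421 for Psmb7). In vehicle 1 the counts before scaling were 2753 for Psmb9 and 1892 for Psmb6. The size of a ratio thus does not tell which form is more abundant, while the comparison between groups does not depend on length.

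The PA28 subunits overlapped between groups as well. Psme1, the α subunit, had 7520, 6709 and 7572 counts on vehicle and 6138, 7632 and 6847 on imatinib. Imatinib 1 was the lowest library and imatinib 2 the highest (means 7267 ± 484 and 6872 ± 747, log2FC -0.081, interval -0.34 to 0.18, adjusted p = 0.677, edgeR). Psme2, the β subunit, had 3965, 3275 and 3502 counts on vehicle and 3509, 3905 and 3233 on imatinib. Its groups covered nearly the same range (means 3581 ± 351 and 3549 ± 338, log2FC -0.013, interval -0.28 to 0.25, adjusted p = 0.954, edgeR), and its sign turned without vehicle 1 or imatinib 3. The count of Psme2 is uncertain, since 59.3% of the 50-base stretches of its longest transcript are also in the retrogene Psme2b, a processed copy of it, and how reads with several places were counted is not given in the sources used here. For Psme1 this share was 14.1%, and at most 3.52% for the other 8 genes. Psme1 over Psme2 per kilobase was 1.51, 1.64 and 1.73 on vehicle and 1.40, 1.56 and 1.69 on imatinib, with overlapping groups (exact permutation p = 0.6, adjusted p = 0.84). The pair lies close together on chromosome 14, Psme1 at chr14:55578494-55581527 on the plus strand and Psme2 at chr14:55587440-55591101 on the minus strand (GRCm38, RefSeq).

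Tap1 and Tap2 encode the partner chains of the peptide transporter, and of the pair Tap1 fell. Tap1 had 7502, 7615 and 7840 counts on vehicle and 5019, 6474 and 5872 on imatinib. Every imatinib library was below every vehicle library, and the vehicle libraries lay close together. Tap1 fell from 7652 ± 172 to 5788 ± 731 (log2FC -0.40, standard error 0.12, 95% interval 0.631-fold to 0.907-fold, adjusted p = 0.0490, edgeR). This call sat at the edge of the threshold: with RLE size factors in place of TMM the adjusted p was 0.0509, and leaving out any library but imatinib 2 it was 0.0933 to 0.145, while the log2FC stayed between -0.31 (without imatinib 1) and -0.51 (without imatinib 2). The macrophage marker sum was lower in every imatinib library and lowest in imatinib 1, as Tap1 was. Marker sums of 5 other cell types were higher in every imatinib library than in every vehicle library: 1143 to 2077 CPM on vehicle and 2192 to 3506 CPM on imatinib for γδ T cells (3 of 7 markers rose), 80.4 to 98.3 and 121 to 153 for dendritic cells (1 of 6 rose), 59.4 to 85.6 and 115 to 354 for GIST and interstitial cells of Cajal (2 of 6 rose), 65.4 to 236 and 312 to 674 for fibroblasts (no marker of 6 passed the test), and 376 to 388 and 428 to 563 for αβ T and NK cells (3 of 8 rose). No marker of these lists was at 0 in all libraries. Over all genes tested, 6.15% rose (edgeR). The median log2FC over the tested markers was 0.71 for γδ T cells, 0.45 for dendritic cells, 2.23 for GIST and interstitial cells and 1.55 for fibroblasts. For αβ T and NK cells it was -0.27 over the 7 markers tested, so their sum was higher while their median was lower. The part of the marker levels in the fall of Tap1 was not tested. Of the 7 macrophage markers 1 (Mrc1, higher on imatinib) passed edgeR's test, and their median log2FC was -0.525. Tap2 had 3223, 2641 and 2737 counts on vehicle and 2488, 2783 and 2786 on imatinib. The groups overlapped and vehicle 1 stood highest (means 2867 ± 312 and 2686 ± 171, log2FC -0.094, interval -0.35 to 0.16, adjusted p = 0.618, edgeR). The ratio of Tap1 to Tap2 per kilobase was 1.61, 1.99 and 1.98 on vehicle and 1.39, 1.61 and 1.46 on imatinib. The highest imatinib ratio, in imatinib 2, was just below the lowest on vehicle, in vehicle 1 (log2 difference -0.32, standard error 0.12, exact permutation p = 0.1, the smallest possible, adjusted p = 0.233).

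**Figure D3:**
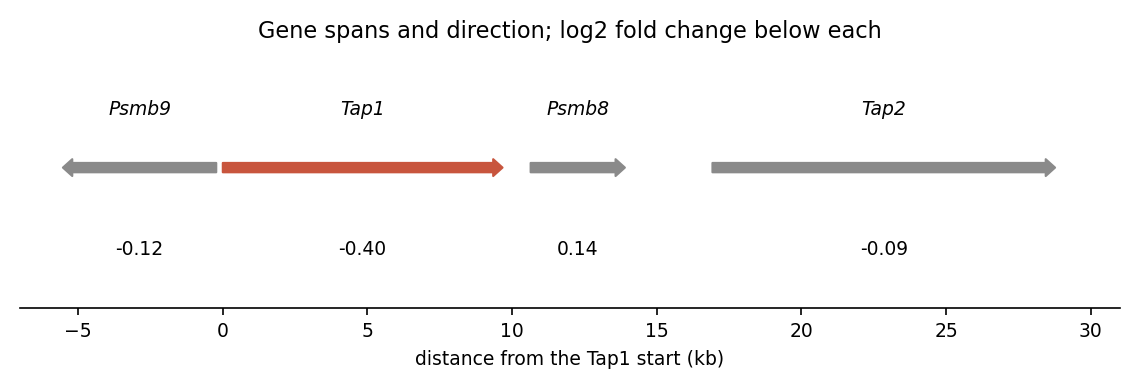
Spans and direction of Psmb9, Tap1, Psmb8 and Tap2, drawn to scale as distance in kilobases from the start of Tap1, with the log2FC under each gene. Tap1 (red, -0.40) is the gene that passed the test, and Psmb9 (-0.12), Psmb8 (0.14) and Tap2 (-0.094) beside it did not.

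Both transporter genes and 2 of the immunoproteasome genes share 34.3 kilobases of the class II region of the MHC on chromosome 17. RefSeq places Psmb9 at chr17:34182030-34187330 on the minus strand, Tap1 at chr17:34187556-34197225, Psmb8 at chr17:34198195-34201454 and Tap2 at chr17:34204479-34216321, the last 3 on the plus strand (GRCm38). Psmb9 and Tap1 are read away from each other from a shared promoter, known for carrying both genes' response to interferon. The stretch that separates their annotated start sites is 225 bases long, at chr17:34187331-34187555, with 61.3% G and C. It is shown because the gene on its right fell while the gene on its left did not pass the test, written on the plus strand so that Psmb9 starts to its left and Tap1 to its right:
Psmb9-Tap1: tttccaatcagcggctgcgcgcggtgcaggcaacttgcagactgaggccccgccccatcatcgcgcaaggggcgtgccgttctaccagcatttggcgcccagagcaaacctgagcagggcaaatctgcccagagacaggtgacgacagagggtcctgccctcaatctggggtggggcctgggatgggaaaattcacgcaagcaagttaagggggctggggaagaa

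Psmb9 over Tap1 per kilobase was 0.502, 0.469 and 0.469 on vehicle and 0.559, 0.610 and 0.576 on imatinib. All imatinib ratios were above all vehicle ratios (log2 difference 0.28, standard error 0.050, exact permutation p = 0.1, the smallest possible, adjusted p = 0.233), and of the 7 ratios this had the smallest standard error. With any library left out the difference stayed between 0.24 and 0.31. In the GENCODE annotation the transcripts of Psmb9 and Tap1 overlap on opposite strands by 212 exonic bases, and the strand setting of the counting is not given in the sources used here, so some reads there could belong to either gene. Of the 7 ratios, 2 were lower on imatinib without overlap (Psmb8 over Psmb5 and Tap1 over Tap2), 1 was higher (Psmb9 over Tap1) and 4 overlapped. Of all single genes tested, 20.2% were lower and 17.5% higher without overlap, and the share over ratios of other genes was not counted. The lowest adjusted p of the 7 ratios was 0.233 (exact permutation test), so none passed.

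**Figure D4:**
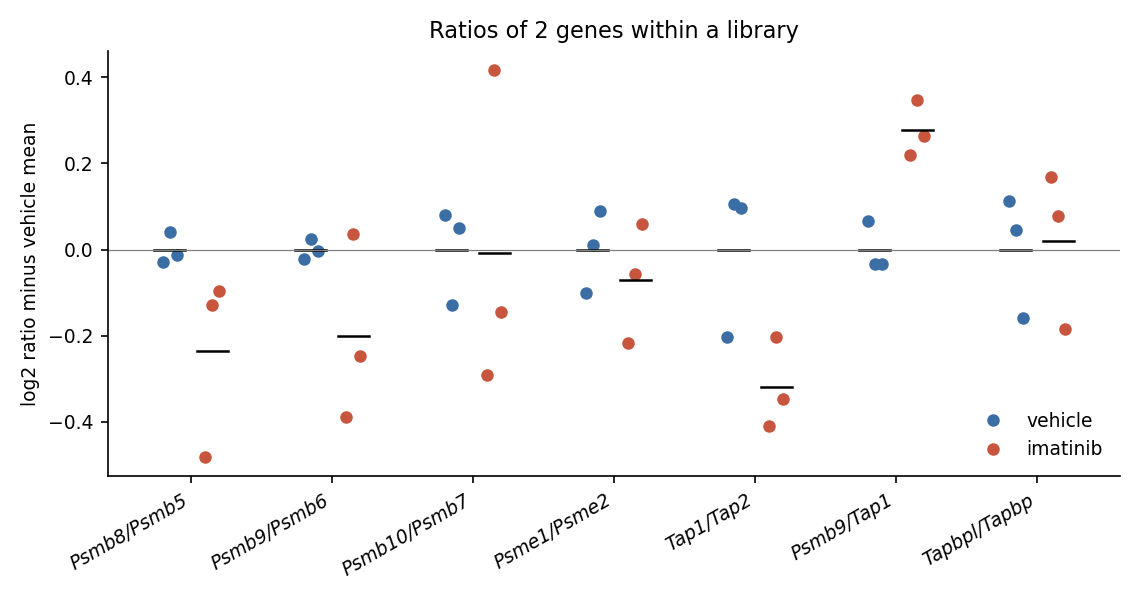
The 7 ratios within a library as log2, each set to its vehicle mean (0); points are libraries and black lines group means (n = 3). Psmb8/Psmb5 and Tap1/Tap2 lie lower and Psmb9/Tap1 higher in all imatinib libraries, with mean differences of -0.23, -0.32 and 0.28, and Psmb10/Psmb7 spreads most.

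Tapasin, which bridges the transporter and the class I molecule, is encoded by Tapbp at chr17:33919478-33929290. Tapbp had 9840, 8101 and 9001 counts on vehicle and 6929, 8628 and 7840 on imatinib. Imatinib 1 and 3 were below all vehicle libraries and imatinib 2 was not (means 8981 ± 870 and 7799 ± 850.1, log2FC -0.20, standard error 0.12, interval -0.48 to 0.072, adjusted p = 0.291, edgeR). Its relative Tapbpl, on chromosome 6 at chr6:125223927-125231860, edits peptides outside the loading complex. Tapbpl had 1719, 1352 and 1302 counts on vehicle and 1257, 1471 and 1114 on imatinib. Vehicle 1 was the highest and imatinib 3 the lowest library, with overlap between the groups (means 1458 ± 228 and 1280 ± 180, log2FC -0.19, interval -0.52 to 0.15, adjusted p = 0.429, edgeR). The ratio of Tapbpl to Tapbp was 0.270, 0.257 and 0.223 on vehicle and 0.280, 0.263 and 0.219 on imatinib (log2 difference 0.020, exact permutation p = 0.8, adjusted p = 0.9). The pair thus kept nearly the same range of ratios in both groups.

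Erap1, the aminopeptidase that trims peptides in the endoplasmic reticulum to the length class I molecules hold, lies at chr13:74639573-74693205. It had 2707, 2329 and 2786 counts on vehicle and 3010, 3018 and 2711 on imatinib. Imatinib 1 and 2 were above all vehicle libraries and imatinib 3 was not (means 2607 ± 244 and 2913 ± 175, log2FC 0.16, interval -0.089 to 0.41, adjusted p = 0.359, edgeR). Erap1 had the highest log2FC of the 10 genes.

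The libraries of a group differed in the 10 genes together. Imatinib 2 was the highest imatinib library for 9 of the 10 genes and imatinib 1 the lowest for 6, while vehicle 1 was the highest vehicle library for 7 and vehicle 2 the lowest for 8. The share of all genes tested with these orders was not counted, so they are no result about the 10 as a set. Summed over the 10 genes, the level was 2037, 1872 and 2063 CPM on vehicle and 1716, 1931 and 1745 CPM on imatinib. Imatinib 2 lay within the vehicle range and the other two imatinib libraries below it. Imatinib 2 also had the highest macrophage marker sum of its group (8816 CPM) and imatinib 1 the lowest (4970 CPM), and for the 7 γδ T cell markers the order within the group was the reverse. Their sum in replicates 1, 2 and 3 was 3506, 2192 and 2892 CPM on imatinib, each above the 1498, 2077 and 1143 CPM on vehicle. The part of these marker levels in the spread of the 10 genes was not tested.

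Genes that work with the 10 were taken from lists of the pathway. Over all genes tested, 8.42% fell and 6.15% rose by edgeR, and 31.1% had an unadjusted p under 0.05. A count near its share is no result about a list. Of the 11 subunits of the barrel that the standard and the immunoproteasome share, 1 rose and 0 fell by edgeR, DESeq2 and voom alike (2 at an unadjusted p under 0.05, edgeR), around a median log2FC of 0.13. Psmb1, the β6 subunit, rose from 1947 ± 182 to 2551 ± 122 (log2FC 0.39, adjusted p = 0.0438, edgeR), but it was at -0.32 when libraries were scaled to CD3 counts. The call was lost without the filter on low counts (adjusted p = 0.0564) and with a block on the replicate number (adjusted p = 0.131, edgeR). It was also lost with any library left out (adjusted p = 0.0541 to 0.155). Psmb4, the β7 subunit, was at 2020 ± 52.2 and 2361 ± 276 (log2FC 0.23, adjusted p = 0.205). Of 8 assembly factors and other regulators, 1 fell and 0 rose by edgeR, 0 fell and 0 rose by DESeq2, and 1 fell and 1 rose by voom (2 at an unadjusted p under 0.05, edgeR). The gene that fell was Psme4, which encodes the PA200 cap (log2FC -0.36, adjusted p = 0.0483), named after its value was seen. Its call was lost without the filter on low counts, with a block on the replicate number and with any library but imatinib 2 left out. The maturation factor Pomp (0.040, adjusted p = 0.839) and the PA28γ gene Psme3 (0.13, adjusted p = 0.409) did not pass the test. Of 7 loading partners and class I chains, 0 rose and 0 fell by edgeR, DESeq2 or voom, and 0 had an unadjusted p under 0.05 in edgeR. B2m, the light chain of every class I molecule, had 72870 ± 1462 counts on vehicle and 75790 ± 7316 with imatinib (log2FC 0.057, interval -0.21 to 0.32, adjusted p = 0.781), and the heavy chain gene H2-D1 had a log2FC of 0.045 (adjusted p = 0.830). Of 7 other peptidases that cut antigenic peptides, 1 fell and 0 rose by all 3 tools (4 at an unadjusted p under 0.05, edgeR), around a median of -0.29. This was Tpp2, tripeptidyl peptidase II (log2FC -0.43, adjusted p = 0.0348), again named after its value was seen. The Tpp2 call was lost with the block on the replicate number and with any library but imatinib 2 left out. Lnpep, an endosomal aminopeptidase related to Erap1, had a log2FC of -0.29 (adjusted p = 0.0902), and the peptidase nardilysin, Nrd1 in the table, one of -0.20 (adjusted p = 0.211).

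Of 11 transcription factors of the class I pathway, 3 fell and 0 rose by each of the 3 tools (4 at an unadjusted p under 0.05, edgeR), around a median of -0.29. Over all genes tested, 8.42% fell by edgeR and 31.1% had an unadjusted p under 0.05. Nlrc5, the transactivator of class I genes, had 5275, 5121 and 4730 counts on vehicle and 1771, 2295 and 2425 on imatinib. The groups were far apart, with a fall from 5042 ± 281 to 2163 ± 346 (log2FC -1.22, standard error 0.13, adjusted p = 0.00359, edgeR). Stat2 (log2FC -1.36, adjusted p = 0.00671) and Irf9 (-0.57, adjusted p = 0.0268), partners in the complex that type I interferon activates, fell. Irf9 did not pass without vehicle 1, 2 or 3 or imatinib 3 (adjusted p = 0.0694 to 0.0888). Nor did it pass with a block on the replicate number (adjusted p = 0.0768, edgeR). Irf1, a direct activator of Psmb9 and Tap1, had 3573, 3468 and 3117 counts on vehicle and 2251, 3356 and 2477 on imatinib. Its imatinib 2 value lay inside the vehicle range (log2FC -0.33, interval -0.68 to 0.022, adjusted p = 0.185, edgeR). The difference between the factors' fold changes and those of the 10 genes was not tested.

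Among interferon γ and 5 genes of its receptor pathway, 1 rose and 1 fell by edgeR (3 at an unadjusted p under 0.05), and 2 rose and 1 fell by DESeq2 and by voom. The edgeR shares over all genes tested were 6.15% higher, 8.42% lower and 31.1% at an unadjusted p under 0.05. With any library but imatinib 2 left out, or with a block on the replicate number, 0 rose and 0 fell. The kinase Jak1 rose from 7430 ± 215 to 9891 ± 907 (log2FC 0.41, adjusted p = 0.0344, edgeR), though it was at -0.33 with CD3 scaling and did not pass with library totals (adjusted p = 0.0576). The inhibitor Socs1 fell from 598 ± 114 to 378 ± 51.3 (log2FC -0.66, adjusted p = 0.0390). Ifng itself had few counts, between 19.2 and 72.3, in overlapping groups (log2FC -0.094, interval -1.38 to 1.19, adjusted p = 0.931), and the interval is wide.

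As a reference for the interferon response, 13 genes typical of type I interferon and 12 typical of interferon γ were counted the same way. Over all genes tested, 8.42% fell and 6.15% rose by edgeR, and 31.1% had an unadjusted p under 0.05. Of the type I genes 8 fell and 0 rose (12 fell by DESeq2 and 13 by voom, and 13 had an unadjusted p under 0.05 in edgeR), around a median log2FC of -1.55. The antiviral GTPase gene Mx1 fell from 3272 ± 379 to 415 ± 149.7 (log2FC -2.98, adjusted p = 0.00359, edgeR), the oligoadenylate synthetase genes Oas2 (-2.54, adjusted p = 0.00681) and Oas3 (-1.55, adjusted p = 0.00733) fell, and the ubiquitin-like modifier gene Isg15 did too (-1.77, adjusted p = 0.0108). Of the interferon γ genes 3 fell and 0 rose (6 fell by DESeq2, 5 by voom, and 6 had an unadjusted p under 0.05 in edgeR), around a median of -0.48. They were the guanylate-binding protein genes Gbp4 (log2FC -0.72, adjusted p = 0.0125) and Gbp7 (-0.53, adjusted p = 0.0319) and the immunity-related GTPase gene Irgm1 (-0.76, adjusted p = 0.0351). Beside these medians the median of the 10 immunoproteasome and loading genes was -0.087. Without vehicle 1, 2 or 3, in turn, 1, 2 and 1 of the 12 interferon γ genes passed the test. For the 13 type I genes the count was 4 each time. Without imatinib 1, 2 or 3 the counts were 1, 7 and 0 for interferon γ and 10, 13 and 4 for type I. With a block on the replicate number they were 1 and 4.

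**Figure D5:**
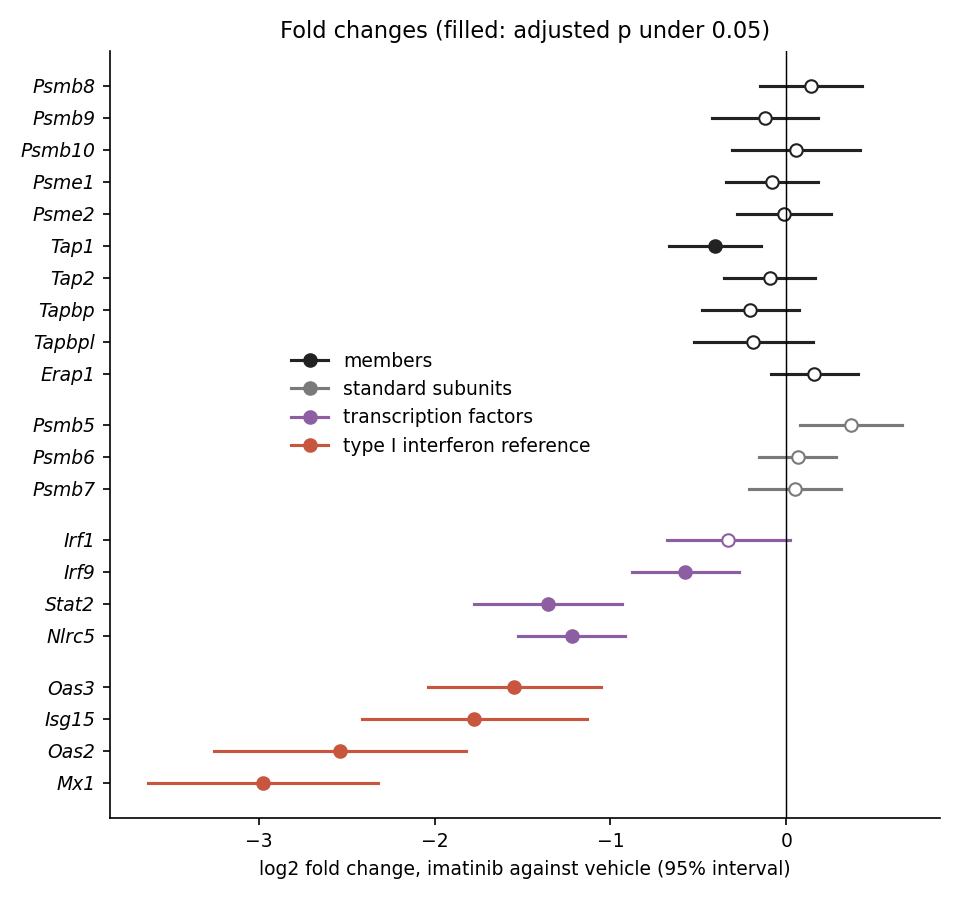
Log2FC of imatinib against vehicle with its 95% interval (edgeR) for the 10 genes (black), the standard subunits (grey), transcription factors (purple) and 4 genes of the type I interferon reference (red); filled points have an adjusted p under 0.05. The 10 genes lie between -0.40 and 0.16, Nlrc5 and Stat2 near -1.22 and -1.36, and the type I genes from -1.55 to -2.98.

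Promoter sequence from RefSeq (GRCm38.p6, 250 bases before to 50 after a start site) was at hand for 8 of the 10 genes, all but Tap2 and Tapbpl. They were searched on both strands for the core of the interferon-stimulated response element, GAAANNGAAA, and for the GAS element of the interferon γ response, TTCNNNGAA. The first was in 3.44% of 32851 promoter windows of the genome and the second in 8.30%. Of the 8 genes 2 held the response element core (Psme1 and Erap1) and 1 a GAS element (Psmb8). By comparison 6 of 10 type I reference genes and 7 of 9 interferon γ reference genes with a window held the core. The windows of Psmb9 and Tap1, which include the whole stretch printed above, held neither, and Psmb10, Psme2 and Tapbp held neither. The matches are shown in capitals on the plus strand, at chr17:34198075-34198134 for Psmb8, chr14:55578489-55578518 for Psme1 and chr13:74639839-74639868 for Erap1, where the capitals of Psme1 and Erap1 are the core as read on the minus strand:
Psmb8: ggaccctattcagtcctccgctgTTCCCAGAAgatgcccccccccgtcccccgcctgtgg
Psme1: gtttcgagctgtgcTTTCGCTTTCccttcc
Erap1: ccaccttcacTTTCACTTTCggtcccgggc

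Counted from the start site of the promoter window as 1, the first base of the match was at -97 in Psmb8, at 10 in Psme1 and at -4 in Erap1. For Erap1 that start site lies inside the span given above, downstream of the gene's outermost start, while for the other two it is the outermost start. The 3 genes with a match had log2FC values of 0.14, -0.081 and 0.16, and none passed the test. Tap1, which fell, had no match. A match is a description of letters, and a search for exact letters can miss elements that differ from them. The lack of a match therefore does not show that a promoter lacks such an element. Binding was not measured.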

How the data were processed

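RNA-seq read counts per gene were deposited by the authors. Alignment was by STAR (default parameters) to mm10, which is GRCm38, and counting by featureCounts. Annotation, strand setting and the handling of reads with several places: not given in the sources used here. Of 57332 rows, 3016 without a gene name (0.118% to 0.158% of counts) were left out, 1013 exact repeats were dropped and 78 symbols with several distinct rows were summed. The table has 3 further columns that match no sample, which were not used. Same-group libraries differed by at least 37.1 in chi-square per gene, so each was counted as a sample.

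Counts were scaled by TMM and tested with edgeR 4.0.16 (R 4.3.3; default filter, robust quasi-likelihood test, Benjamini-Hochberg over all genes tested). The code was tested on simulated data. Ratios used counts plus 0.5 and an exact two-sided permutation test, adjusted over 7 ratios. Lengths and overlaps came from GENCODE M21. Genes named are the 10, the standard subunits, Nlrc5, Irf1 and, from each other list, the 4 (or fewer) genes of smallest p past the test or, where fewer than 2 pass, the 2 with the highest mean. Outside that rule, Psme4, Tpp2, Ifng, Psme2b, Cast, Vamp1 and the marker genes were chosen after seeing their values. Some genes of the lists are not reported here and were left out of the lists' counts. Members and lists were chosen with earlier results of these data known.

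Alternatives were RLE factors, library totals, scaling to CD3 counts, no filter, at least 10 CPM in 3 libraries, the highest row of a symbol, limma voom 3.58.1, DESeq2 1.42.0, other thresholds, a block on the replicate number, each library left out in turn and, for ratios, no pseudocount. A change of sign counted as a reversal for the 10 genes and the ratios at any p, and for other genes where either value passed the test. Python 3.11.15, pandas 2.3.3, scipy 1.17.1 and matplotlib 3.10.9 were used.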

Additional observations from a re-analysis of the deposited data

How the results depend on the processing

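Over all genes, counts higher and lower on imatinib were 1022 and 1399, against 135 and 4678 with CD3 scaling, 173 and 437 with the replicate block, 1761 and 2177 at an adjusted p under 0.1, and 304 and 540 with a log2 fold change beyond 1. Leaving out each library gave 182 to 1171 higher and 503 to 1780 lower. Among the 10 genes, 1 was lower, 0 with RLE factors, the replicate block or a log2 fold change beyond 1, 2 with CD3 scaling (Tap1 and Tapbpl), and 0 to 1 leaving out each library. No alternative called any of them higher. With CD3 scaling the log2 fold changes of Psmb8, Psmb10, Erap1, Psmb1 and Jak1 turned to -0.57, -0.65, -0.59, -0.32 and -0.33, and with voom that of Psmb10 turned to -0.018; the cause was not tested beyond the shift of -0.73 in all genes with CD3 scaling. Leaving out each library, Psmb10 ran from -0.15 to 0.14 and Psme2 from -0.11 to 0.046, and the log2 ratios Psmb10/Psmb7 from -0.22 to 0.14, Psme1/Psme2 from -0.14 to 0.0013 and Tapbpl/Tapbp from -0.060 to 0.12. The other ratios kept their sign.

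Whether replicate numbers mark pairs could not be told from the counts. The deviations from the group mean correlated at -0.198, -0.0506 and -0.0593 for same-numbered libraries and at -0.108 to 0.169 for differently numbered ones. With 3 libraries a group these deviations are tied to each other, so such values cannot exclude pairs. With the replicate block, the log2FC of Tap1 was -0.41 (adjusted p = 0.124, edgeR). With 3 libraries a group and standard errors of 0.11 to 0.16, changes of the size seen in 9 of the 10 genes could not be told from 0.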

Other observations

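Several of the 10 genes lie over or beside other genes whose own values bear on reading their counts. The retrogene Psme2b, which shares sequence with Psme2, had 467 ± 58.7 TMM-scaled counts on vehicle, and 425 ± 71.7 after imatinib (SD, n = 3, log2FC -0.14, adjusted p = 0.635, edgeR). Cast, the calpain inhibitor calpastatin, shares 834 exonic bases with Erap1 on the opposite strand. Cast had 2440, 2236 and 2077 counts on vehicle and 2893, 2666 and 3019 on imatinib, so all imatinib libraries were higher (log2FC 0.35, adjusted p = 0.0618, edgeR). Vamp1, a vesicle fusion protein gene that spans Tapbpl on the opposite strand with 0 shared exonic bases, fell from 367 ± 67.0 to 193 ± 60.6 counts (log2FC -0.93, adjusted p = 0.0448, edgeR). Tapbp shares 904 exonic bases with the antisense gene Gm19412 and 149 with Zbtb22, and Zbtb22 had a log2FC of -0.098 (adjusted p = 0.665). Gm20496, antisense to Psmb8 and Tap2, had 0 counts in all libraries. Tap2 also shares 533 exonic bases with Gm15821, a noncoding gene on the opposite strand whose counts were not examined. Any share of these genes' reads in the counts of the 10 was not tested.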
